A study of Mus musculus with 6 samples.

Results

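The genes described here are 53 growth factors, neurotrophins, receptors and feedback inhibitors of the FGF, VEGF, PDGF, IGF, neuregulin and EGF, neurotrophin, GDNF, pleiotrophin, HGF and CNTF families. They were chosen by name: a probe belonged to the set when it was not a control spot and its gene name in the scanner files was one of the 53. The list of names was made with earlier results of these data known, so the shares below are no test of the set. The names took in 85 probes on 190 spots, out of 55681 probes on the array, and all 53 genes were among the 32695 genes tested. RNA came from the primary somatosensory cortex (S1) of C57BL/6 mice at postnatal day 7, with 1 single-colour Agilent array per sample. The cKO group held 3 samples of genotype Lhx2f/f;Nex-Cre, and the control group held 3 samples of genotype Lhx2f/f. All 6 therefore carried floxed alleles of Lhx2, a LIM-homeodomain transcription factor gene, and only the cKO samples carried Cre. Nex-Cre is Cre recombinase placed in the Neurod6 locus, which is active in excitatory neurons of the cortex, so glia, vessels and interneurons of the same tissue are not its main target cells. Nothing in the labels ties a sample to its own animal, and the p-values below speak only for the spread among these 6 samples, which may be technical.

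Growth factors are secreted or membrane-bound ligands that act mostly through receptor tyrosine kinases. FGF, PDGF, EGF and IGF ligands drive proliferation, survival and differentiation of neural and glial precursors. Neurotrophins act on Trk receptors and Ngfr to support survival, dendrite growth and synapse formation of neurons, and VEGF ligands act on vessels. In the early postnatal cortex neurons, astrocytes, oligodendrocyte precursors and meningeal cells all make some of these factors, and many receptors are found in glia.

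Some probes decide how the values below read, and the first 30 of their 60 bases are shown, 5′ to 3′, as the array files give them. The probe of Figf is shown because that gene had the smallest p of the set, and the probes of Ntrk2 and Fgfr1 are shown because different probes of each gene gave differences of opposite sign. All lie on the plus strand on mm9, the build of the files. The Figf probe lies at chrX:160840395-160840454. The Ntrk2 probes lie at chr13:58979563-58979622, at chr13:59038046-59038105 and at chr13:59230936-59230995. The transcripts that the files list for each Ntrk2 probe are those of both receptor forms, of the truncated form only and of the full-length form only, in that order. The Fgfr1 probes lie at chr8:26684061-26684120, at chr8:26685072-26685131 and at chr8:26685820-26685879, in the order shown. No exon or UTR positions of this build were used.
Figf: ggctggcaaagtccaagggcaatgctcatg
Ntrk2, both forms: tgcctgctggtgatgttgctcctgctcaag
Ntrk2, truncated form: ttctcaccagcttaattttagccgatgcat
Ntrk2, full-length form: tcaattgatacctatgtgcacgtgtgcaga
Fgfr1, start 26684061: agacctacgttcaagcagttggtggaagac
Fgfr1, start 26685072: gagacgcccagggtagcatccgttgctata
Fgfr1, start 26685820: agccttagagggtttgtttttgttttttgt

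Every level below is a log2 processed signal minus the array's 75th percentile, so 0 is the 75th percentile of that array, and a difference is cKO minus control. Values are listed in the order of replicates 1, 2 and 3. Between 86.7% and 91.1% of the spots of an array were well above background, and no spot was saturated. The Lhx2 probe read 4.55, 4.68 and 4.89 in the arrays labelled cKO, against 3.62, 3.63 and 3.55 in control (difference 1.1, limma adjusted p = 0.067). This is opposite to a loss of transcript. Neither labels nor files name the part of Lhx2 that is deleted. A probe outside that part checks nothing, so the text speaks of arrays labelled cKO and each direction rests on that label. Neurod6, the locus that holds Cre, also read higher in the arrays labelled cKO (difference 0.37, limma adjusted p = 0.52). Neither of these genes therefore bore out the labels. Y-linked signal was present in control replicates 1 and 3 and in no other array, so sex also differed between the groups. All arrays lay on 1 slide, and only rows 1 and 2 of it held both groups. In each of these rows the control array lay in slide column 1 and the array labelled cKO in column 2. A difference within a row therefore also compares columns. In row 1 it also sets cKO replicate 2, without Y-linked signal, against control replicate 1, with it.

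Markers of several cell types lay lower in the arrays labelled cKO. All 10 astrocyte markers tested read lower on average in the arrays labelled cKO, with a median difference of -0.48. Per array, the median astrocyte marker stood at -0.37, -0.44 and -0.62 in the arrays labelled cKO, against 0.05, -0.03 and 0.01 in control, relative to the control mean. The astrocyte median was -0.55 within slide row 1 and -0.65 within row 2. The 12 oligodendrocyte lineage markers had a median of -0.32, with 10 of 12 below 0, and the 12 microglia markers a median of -0.58, with 12 of 12 below 0. The 8 excitatory neuron markers had a median of 0.23, with 5 of 8 above 0. Their median per array was 0.02, 0.26 and 0.25 in the arrays labelled cKO, against 0.14, 0.04 and -0.15 in control, so the groups overlapped. The 11 interneuron markers had a median of -0.31, with 11 of 11 below 0. The 8 endothelial markers had a median of -0.10 and the 7 pericyte markers one of -0.22. The 6 striatal and 4 of 5 thalamic markers, genes of neighbouring tissue, had medians of -0.35 and -0.21. The 9 meningeal markers had a median of -0.36, but here 1 array stood apart: the median was -1.15 in cKO replicate 2, against -0.31 and 0.29 in the other cKO arrays and 0.25, -0.27 and 0.09 in control. No marker of these lists passed the adjusted threshold. In whole tissue, fewer cells of a type and less RNA per cell cannot be told apart, and the part of these markers in any result below was not tested.

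None of the 53 genes passed an adjusted p of 0.05 in limma over all genes, where 3 of 32695 genes did (0.00918%). At an unadjusted p under 0.05, 3 of the 53 read higher and 6 lower, which is 17% of the set, against 7.5% of all genes (3.12% higher and 4.38% lower). The arrays labelled cKO all lay above all control arrays for 6 of the 53 (11.3%), against 6.98% of all genes, and all below them for 8 (15.1%), against 6.2% of all genes. In either direction this was 26.4% of the set, against 13.2% of all genes. For 24726 of the 55681 probes on the array no current gene symbol was found. All genes here include such names, so they are not matched to the set. With fewer arrays more genes separate by construction. Without control replicates 1 and 3, which had Y-linked signal, 12 of the 53 (22.6%) lay above the control array that is left, against 23.4% of all genes, and 14 (26.4%) below it, against 21.3%. Without control replicate 3 alone, 10 (18.9%) lay above, against 15.4% of all genes, and 14 (26.4%) below, against 12.2%. Without cKO replicate 1 or without cKO replicate 2, 10 (18.9%) lay above, against 13.5% and 13.2% of all genes. Median centring gave 5 below (9.43%, against 5.23% of all genes) and the mean of a gene's probes 3 above (5.66%, against 6.96%). The median difference over the set was -0.016, and 26 genes lay above 0 and 27 below, against a median of 0.019 and 55.7% above 0 over all genes. The set as a whole was therefore centred near 0, and its separated genes lay on both sides. All 85 probes were well above background on all 6 arrays. With every probe fitted on its own, 0 of the 85 passed, and the lowest adjusted p was 0.080. Of the 22 genes with several probes, 10 had probes of opposite sign, while 31 genes had 1 probe.

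**Figure D1:**
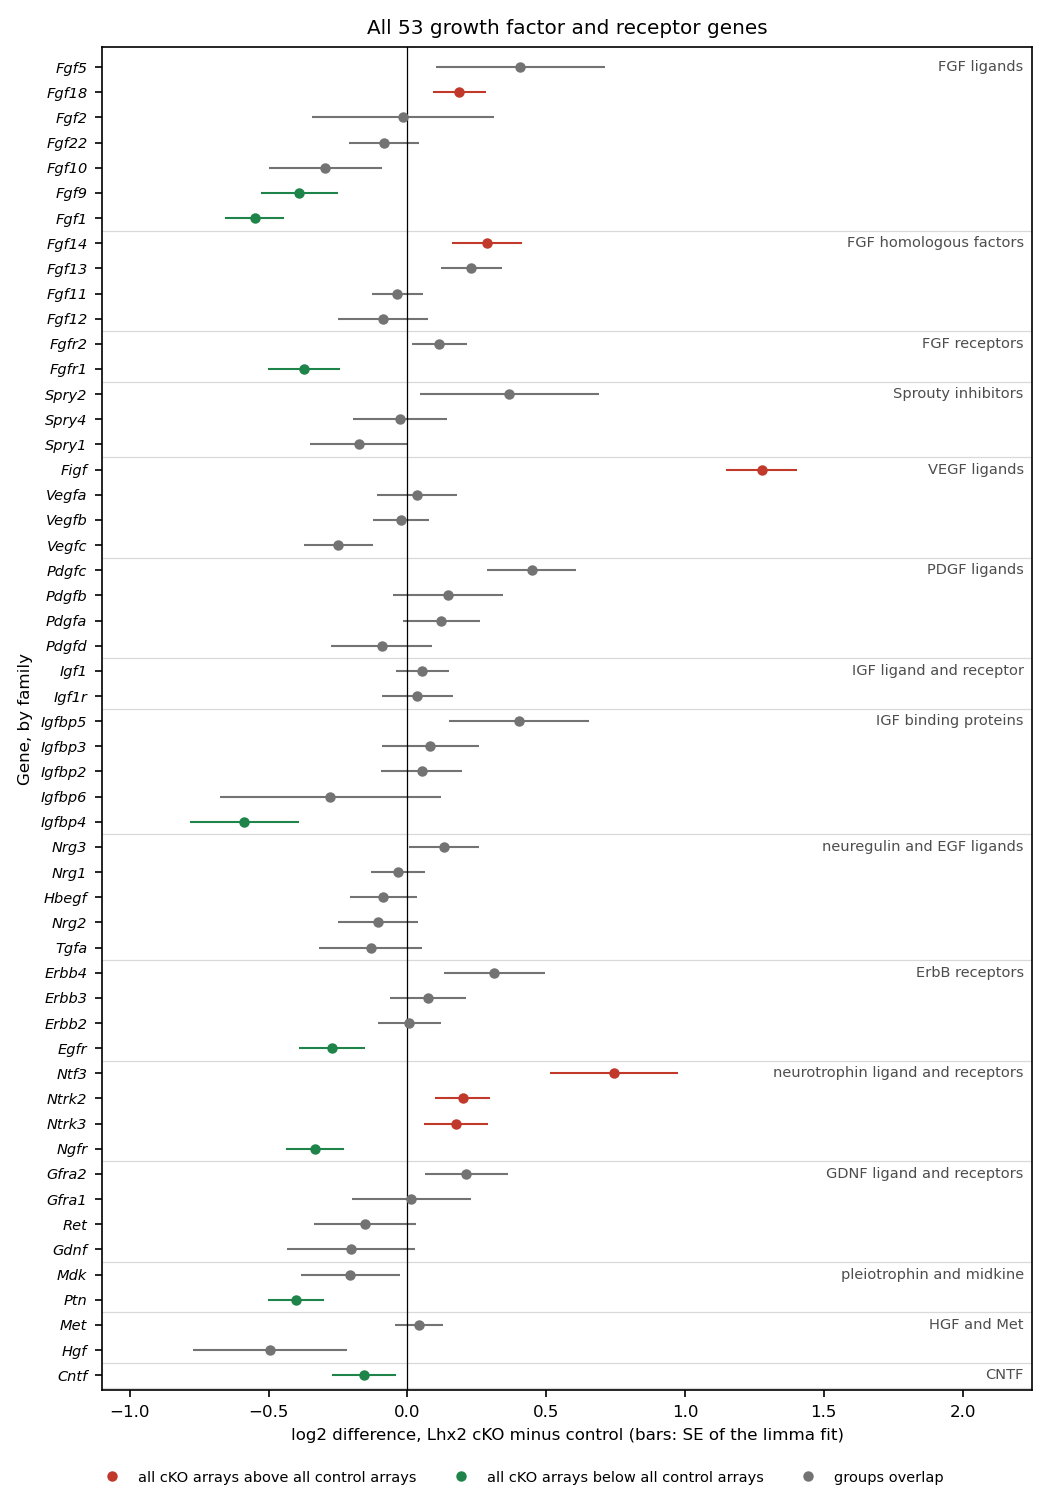
The log2 difference (cKO minus control, x axis) of each of the 53 genes, ordered by family down the page, with bars for the standard error of the limma fit over 3 arrays a group. Red points are the 6 genes whose arrays labelled cKO all lay above control and green points the 8 whose arrays all lay below it. Figf stands apart at 1.28.

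Among the VEGF ligands, Figf had the lowest p of all 53 genes. Figf, also named Vegfd, encodes a secreted factor that acts on the receptors of lymphatic and blood vessels. Its probe read 0.35, 0.07 and 0.0031 in the arrays labelled cKO, against -1.29, -1.09 and -1.04 in control. Every array labelled cKO was above every control array, and the gap between the groups was larger than the range within either. This is a 2.42-fold higher signal (difference 1.28, SE 0.13), rank 13 of all genes by p, with a limma adjusted p of 0.067. The difference was 1.36 within slide row 1 and 1.09 within row 2, and 1.23 without the arrays with Y-linked signal. The adjusted p was under 0.05 with quantile normalization (0.048), median centring (0.020), normexp background correction (0.0069), the filter on all 6 arrays (0.046), a variance trend (0.0057) and the authors' matrix (0.047), and it ranged from 0.0057 to 0.63 over the 21 alternatives run. The angiogenic ligand Vegfa had a difference of 0.03 and its relative Vegfb one of -0.02, both with overlapping groups. Vegfc, the closest relative of Figf, read -0.32, -0.07 and 0.02 in the arrays labelled cKO, against 0.27, 0.10 and 0.01 in control (difference -0.25, adjusted p = 0.77). It therefore lay on the other side of 0 from Figf, with groups that overlapped.

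Among the secreted FGF ligands, at their brightest probes, Fgf1 and Fgf9 read lower in every array labelled cKO and Fgf18 higher. Fgf1 encodes a broadly acting FGF that is made by neurons. Its brighter probe read 0.69, 0.65 and 0.41 in the arrays labelled cKO, against 1.1, 1.2 and 1.11 in control (difference -0.55, SE 0.11, adjusted p = 0.23). The second Fgf1 probe had a difference of 0.016 with overlapping groups, so the probes of this gene did not read alike. Fgf9, a ligand that acts on glia and neurons, read 0.40, 0.47 and 0.30 in the arrays labelled cKO, against 0.92, 0.92 and 0.50 in control (difference -0.39, SE 0.14, adjusted p = 0.55). Control replicate 3 lay close to the cKO range and the other control arrays well above it. Fgf18 read 0.98, 1.03 and 0.99 in the arrays labelled cKO, against 0.90, 0.85 and 0.69 in control (difference 0.19, SE 0.094, adjusted p = 0.77). Its second probe had a difference of 0.11 with overlapping groups. At their brightest probes Fgf2, Fgf5, Fgf10 and Fgf22 had overlapping groups, with differences between -0.30 and 0.41. The second probe of Fgf2 had a difference of -0.21 and groups that did not overlap (adjusted p = 0.85 over all probes). The value of Fgf5 came from 1 array: it read -2.31 in cKO replicate 1, and between -3.29 and -3.64 in all the others.

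The FGF homologous factors stay inside the cell, where they bind voltage-gated sodium channels. Of these, Fgf14 read 0.03, 0.27 and 0.17 in the arrays labelled cKO, against -0.02, -0.02 and -0.35 in control (difference 0.29, SE 0.13, adjusted p = 0.69). The groups did not overlap, by a narrow margin. The difference was 0.18 without the arrays with Y-linked signal. The other probes of Fgf14 had differences of 0.17 and 0.15. Fgf13 had a difference of 0.23, Fgf11 of -0.04 and Fgf12 of -0.09, with overlapping groups.

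The FGF receptor Fgfr1, found on neurons and precursors, read 2.08, 2.03 and 2.14 at its brightest probe, the middle of those shown, in the arrays labelled cKO, against 2.57, 2.20 and 2.60 in control (difference -0.37, SE 0.13, adjusted p = 0.53). Control replicate 2 was the nearest to the cKO arrays, and it was the control array with no Y-linked signal. Without the arrays with Y-linked signal the difference was -0.12, and it was -0.54 within row 1 and -0.06 within row 2. The last and the first of the Fgfr1 probes shown above had differences of 0.15 and -0.22, both with overlapping groups. Fgfr2, a receptor of glia and precursors, had a difference of 0.12. Of the Sprouty genes, whose products damp signalling from FGF receptors, Spry1 had a difference of -0.17, Spry2 of 0.37 and Spry4 of -0.026, all with overlapping groups. Spry2 varied more within control (-2.08, -1.21 and -0.70) than among the arrays labelled cKO (-0.87, -1.01 and -1.0).

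**Figure D2:**
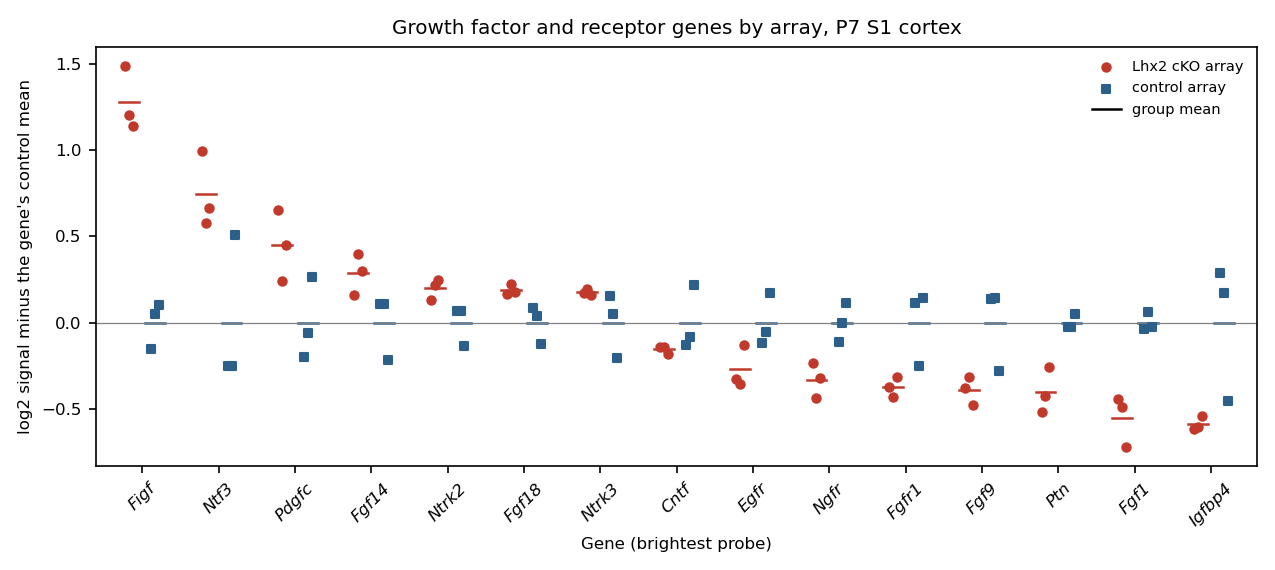
Log2 signal minus the gene's control mean (y axis) for each of the 3 arrays labelled cKO (red circles, left) and the 3 control arrays (blue squares, right), with group means as lines, for the 15 genes with an unadjusted p under 0.05 or groups that did not overlap. By the group mean of the arrays labelled cKO, Figf is farthest above 0 and Igfbp4 farthest below, and Pdgfc is the gene whose groups overlap.

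Of the PDGF ligands, which act on oligodendrocyte precursors and pericytes, Pdgfc had the smallest p. It read -0.23, -0.64 and -0.44 in the arrays labelled cKO, against -1.09, -0.95 and -0.62 in control (difference 0.45, SE 0.16, adjusted p = 0.56). Control replicate 3 was just above cKO replicate 2, so the groups overlapped. Pdgfa, the main ligand for oligodendrocyte precursors, had a difference of 0.12, Pdgfb, the pericyte-recruiting ligand, of 0.15, and Pdgfd of -0.09.

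Among the IGF genes, the binding protein gene Igfbp4 was the one whose groups did not overlap at the brightest probe. Igfbp4 encodes a secreted protein that holds IGF away from its receptor. It read -0.72, -0.71 and -0.65 in the arrays labelled cKO, against 0.18, 0.06 and -0.56 in control (difference -0.59, SE 0.20, adjusted p = 0.50). The arrays labelled cKO lay close together, and control replicate 3 was only just above them. Igfbp5, another binding protein, read 2.50, 3.34 and 3.46 in the arrays labelled cKO, against 2.61, 2.64 and 2.85 in control (difference 0.40, SE 0.25, adjusted p = 0.87). Replicates 2 and 3 labelled cKO were above all control arrays and replicate 1 was below them. Igfbp6 read 0.89, -0.49 and 0.84 in the arrays labelled cKO, against 0.92, 0.21 and 0.93 in control (difference -0.28, SE 0.40). Its low arrays, cKO replicate 2 and control replicate 2, were also the lowest array of each group in the meningeal markers given above. Igfbp2 and Igfbp3 had differences of 0.05 and 0.08. Igf1 had a difference of 0.05 and Igf1r of 0.04 at their brightest probes, with overlapping groups. The other Igf1 probes had differences of 0.22, -0.22, -0.22 and -0.18. The first of these was the Igf1 probe whose groups did not overlap (unadjusted p = 0.047, adjusted p = 0.72 over all probes).

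In the EGF and neuregulin system, the receptor Egfr read lower in every array labelled cKO and the ligands did not separate. Egfr, which marks precursors and young astrocytes, read -0.34, -0.37 and -0.14 in the arrays labelled cKO, against -0.13, -0.07 and 0.16 in control (difference -0.27, SE 0.12, adjusted p = 0.68). The gap between the groups was 0.011, and its other probes had differences of -0.20 and -0.06 with overlapping groups. Erbb2 had a difference of 0.0069, Erbb3 of 0.07 and Erbb4 of 0.31, the receptors of the neuregulins. The neuregulins Nrg1, Nrg2 and Nrg3 had differences of -0.03, -0.11 and 0.13. The EGF receptor ligands Hbegf and Tgfa had differences of -0.09 and -0.13, and all groups overlapped.

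At their brightest probes, all 4 neurotrophin genes of the set had groups that did not overlap, where 13.2% of all genes did not. Ntf3 encodes neurotrophin-3, the ligand of the TrkC receptor Ntrk3. It read -1.11, -1.52 and -1.44 in the arrays labelled cKO, against -2.36, -2.36 and -1.59 in control (difference 0.74, SE 0.23, adjusted p = 0.46). Control replicate 3 lay just under the arrays labelled cKO and the other control arrays far under them. The difference of Ntf3 was 0.83 within row 1 and 0.92 within row 2. Ntrk3 read 3.43, 3.45 and 3.42 in the arrays labelled cKO, against 3.41, 3.31 and 3.05 in control (difference 0.18, SE 0.11, adjusted p = 0.89). The gap between the groups was 0.0056, far less than the range within control, and without control replicate 3 the difference was 0.073. Of the other Ntrk3 probes, 1 had a difference of 0.14 with groups that did not overlap, and the rest had differences of 0.042 and 0.028 with overlapping groups. Ngfr, the receptor that all neurotrophins share, read -0.71, -0.91 and -0.79 in the arrays labelled cKO, against -0.58, -0.48 and -0.36 in control (difference -0.33, SE 0.10, adjusted p = 0.48). The difference was -0.33 within row 1 and -0.32 within row 2.

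Ntrk2 encodes TrkB, the receptor of BDNF, in a full-length form with a kinase domain, made by neurons, and a truncated form without it, abundant in astrocytes. The full-length probe read 3.63, 3.72 and 3.75 in the arrays labelled cKO, against 3.57, 3.57 and 3.36 in control (difference 0.20, SE 0.099, adjusted p = 0.77). The truncated-form probe read 0.27, 0.54 and 0.15 in the arrays labelled cKO, against 0.75, 0.76 and 1.19 in control (difference -0.58, SE 0.16, adjusted p = 0.49 over all probes). The probe of both forms read 2.38, 2.48 and 2.34 in the arrays labelled cKO, against 2.57, 2.65 and 2.82 in control (difference -0.28, SE 0.11, adjusted p = 0.66 over all probes). So the full-length probe was higher in every array labelled cKO, and the other 2 Ntrk2 probes were lower in every one. Within each array, the truncated-form value minus the full-length value, relative to its control mean, was -0.76, -0.57 and -1.0 in the arrays labelled cKO, against -0.21, -0.21 and 0.42 in control (difference -0.77). The same quantity for the probe of both forms differed by -0.48. Both comparisons gave a two-sided exact permutation p of 0.10, the smallest that 3 against 3 arrays allow. They were chosen after the values were seen. As the full-length probe and the other probes already separated the groups in opposite directions, this p could not have come out otherwise. It adds nothing to the separation. The astrocyte markers were lower in the same arrays, as given above. Without the arrays with Y-linked signal, the difference of the full-length probe was 0.13.

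**Figure D3:**
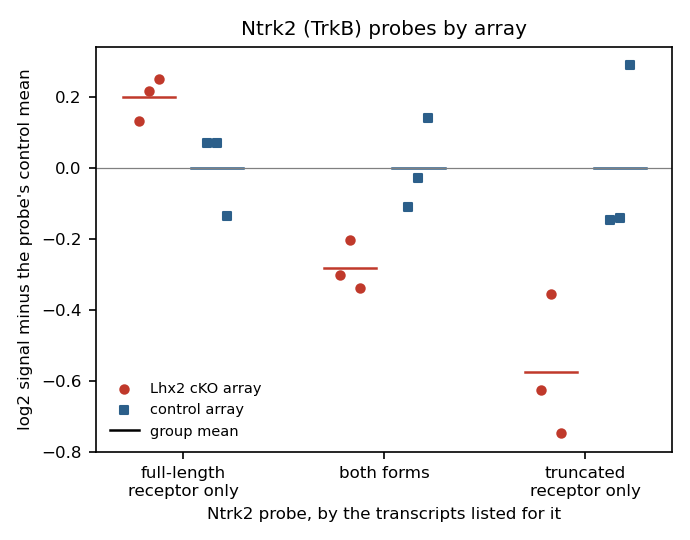
Log2 signal minus the probe's control mean (y axis) for the Ntrk2 probes (x axis) in the 3 arrays labelled cKO (red circles, left) and the 3 control arrays (blue squares, right), with group means as lines. The mean of the arrays labelled cKO is at 0.20 for the full-length probe, -0.28 for the probe of both forms and -0.58 for the truncated-form probe.

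Ptn encodes pleiotrophin, a secreted heparin-binding factor of glia and precursors. Its brighter probe (chromosome 6, 36691376 to 36691435) read 5.02, 5.11 and 5.28 in the arrays labelled cKO, against 5.52, 5.51 and 5.59 in control (difference -0.40, SE 0.10, adjusted p = 0.33). The second Ptn probe read 3.82, 4.11 and 4.19 in the arrays labelled cKO, against 4.35, 4.33 and 4.36 in control (difference -0.31, SE 0.12, adjusted p = 0.68 over all probes). Both probes separated the groups in the same direction. For its relative Mdk, midkine, the difference was -0.21 with overlapping groups, and the files place the brighter Mdk probe on chromosome 11 but the other one, at -0.14, on chromosome 2. Hgf, a ligand with low signal here, had a difference of -0.50 and its receptor Met one of 0.04, both with overlapping groups. The GDNF ligand and its receptors had differences of -0.20 (Gdnf), 0.014 (Gfra1), 0.21 (Gfra2) and -0.15 (Ret), and all groups overlapped.

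Cntf encodes a factor made mainly by glia. It read -1.88, -1.88 and -1.92 in the arrays labelled cKO, against -1.87, -1.82 and -1.52 in control (difference -0.16, SE 0.12, adjusted p = 0.92). The groups were separated by 0.013, and without the arrays with Y-linked signal the difference was -0.07, and without control replicate 3 alone -0.048. The receptor genes of CNTF and LIF, which are no members of the set, were further apart. Lifr, the signalling receptor that LIF and CNTF share, read 0.72, 0.71 and 0.55 in the arrays labelled cKO, against 1.51, 1.43 and 1.0 in control (difference -0.65, SE 0.15, adjusted p = 0.31). Cntfr, the CNTF-binding subunit, read -1.93, -2.08 and -1.97 in the arrays labelled cKO, against -1.82, -1.51 and -1.57 in control (difference -0.36, SE 0.11, adjusted p = 0.48). Il6st, the shared subunit gp130, read 0.65, 0.65 and 0.60 in the arrays labelled cKO, against 0.93, 0.82 and 0.91 in control (difference -0.25, SE 0.085, adjusted p = 0.51), and it was picked with its values in view. All 3 receptor genes thus lay below every control array in the arrays labelled cKO. They are 3 of the 6 genes listed for CNTF and LIF (50%), against 6.2% of all genes. The medians of all marker lists but that of excitatory neurons were also below 0, as given above, and their part was not tested.

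**Figure D4:**
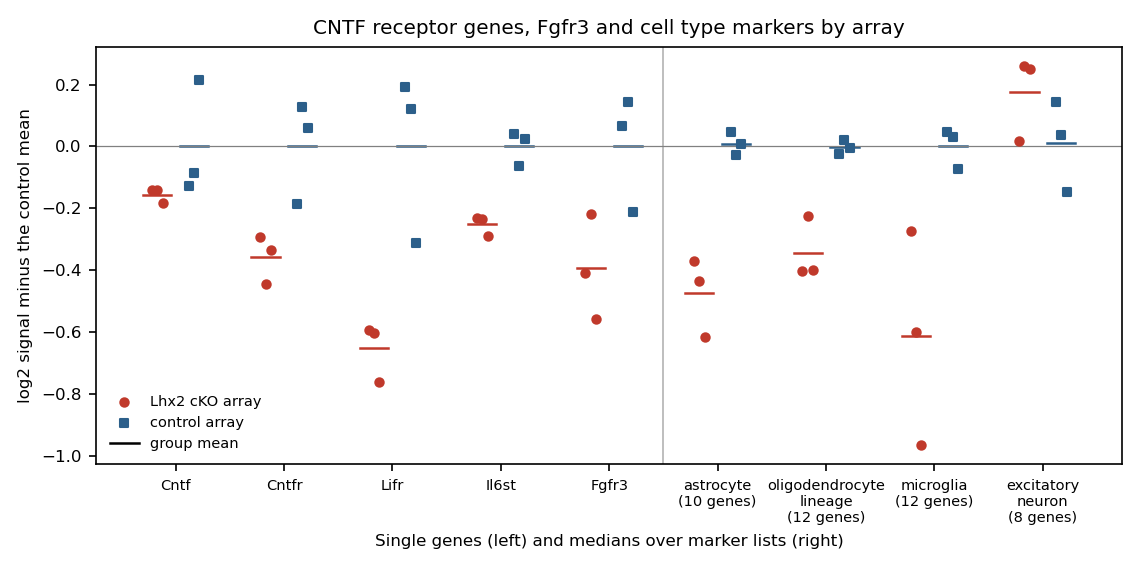
Log2 signal minus the control mean (y axis) for Cntf, its receptor genes and Fgfr3, and the median over the markers of astrocytes, oligodendrocyte lineage, microglia and excitatory neurons, in the 3 arrays labelled cKO (red circles, left) and the 3 control arrays (blue squares, right). Lines are group means. Lifr has a difference of -0.65 and the astrocyte markers a median difference of -0.48.

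Beyond the set, 71 of 78 listed genes of the same pathways could be tested, and 0 passed in limma. At an unadjusted p under 0.05, 4 read higher and 6 lower, which is 14.1% of them, against 7.5% of all genes. The groups did not overlap for 7 higher and 9 lower genes, which is 22.5%, against 13.2% of all genes, and the lowest adjusted p was 0.31. Among receptors, Fgfr3, an FGF receptor of astrocytes and their precursors, read 2.56, 2.75 and 2.41 in the arrays labelled cKO, against 3.03, 3.11 and 2.76 in control (difference -0.39, adjusted p = 0.54). Pdgfrb, the PDGF receptor of pericytes, read -0.36, -0.34 and -0.33 in the arrays labelled cKO, against 0.10, -0.13 and 0.04 in control (difference -0.35, adjusted p = 0.38). Both lay below every control array in the arrays labelled cKO, Fgfr3 narrowly (2.75 in cKO replicate 2, against 2.76 in control replicate 3). The medians of all marker lists but that of excitatory neurons were also below 0, and their part was not tested. Higher in every array labelled cKO were Ncam1, a cell adhesion molecule that also binds GDNF (difference 0.29, adjusted p = 0.49), Sdc3, a syndecan that binds pleiotrophin (0.27, adjusted p = 0.57), and Irs2, an adaptor of the insulin and IGF receptors (0.30, adjusted p = 0.62). Ntf5, the neurotrophin that shares TrkB with BDNF, had a difference of 0.25 (adjusted p = 0.65). Etv1, a transcription factor that responds to FGF signalling and marks deep-layer neurons, had a difference of 0.29 (adjusted p = 0.70). In its list of 11 FGF feedback and target genes, 5 lay above 0 and 6 below. In limma, 0 genes of that list had an unadjusted p under 0.05. Egr1 of that list was below 0 in all 21 alternatives (-0.74 to -0.24). So was Igfbp1 (-0.76 to -0.24), whose groups overlapped. It is of the same IGF list as Irs2, where 4 of 8 genes lay above 0 and 4 below. Not all alternatives could change a direction, so a kept direction says little by itself. The neurotrophin Bdnf had a difference of 0.05, with overlapping groups.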

How the data were processed

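Per the file headers, the deposited scanner tables give spot intensities of 1-colour Agilent arrays from Feature Extraction 10.5.1.1, spatially detrended in the processed column. The authors' deposited series matrix holds log2 values of the same probes, with no account of their processing in the labels or headers. Its columns matched quantile-normalized values minus each probe's median (95% of values within 0.00235; column medians -0.0064 to 0.00645), and it was used as an alternative.

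Processed signals were put on the log2 scale, outlier-flagged spots (112 to 198 an array) were left out, spots of a probe were averaged and the array's 75th percentile over probe means was subtracted. How that percentile is taken was chosen after seeing the counts of genes called under 4 versions. A probe was tested if well above background on at least 3 of 6 arrays, and a gene took its brightest probe. Groups were compared with limma 3.58.1 in R 4.3.3 (lmFit, eBayes, two-sided, Benjamini-Hochberg over 32695 genes), checked on simulated data. Markers and pathway genes were named through a RefSeq table of GRCm38.p6, while the 53 genes kept the names of the files. The 53 genes, the other lists and the tests were chosen with earlier results of these data known. Named were members with an unadjusted p under 0.05 or groups that did not overlap, with others as needed to complete a family, up to 2 pathway genes a sublist by smallest p, and Lhx2 and Neurod6. Replicate numbers were not taken to pair samples. The number of arrays limits the precision.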

Additional observations from a re-analysis of the deposited data

How the results depend on the processing

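Over 21 alternatives, 34 of the 36 named genes kept the direction of their difference. Not all of these could change a direction. The variance trend and the replicate block leave every difference as it was. The Y-linked term gives, by construction, the same differences as leaving out control replicates 1 and 3. For a gene whose groups do not overlap, leaving out arrays cannot reverse the direction either. All named members but Pdgfc were of that kind, so the directions they kept there add nothing. Ntrk2 was at -0.22 with the mean of all its probes, and Nrg4, an EGF family ligand at 0.20 in the comparison above, was at -0.076 both with a Y-linked term and without control replicates 1 and 3, which had Y-linked signal. Pathway genes called were 0 throughout. Figf alone passed among the 53 (1 gene) with quantile normalization, median centring, normexp, the filter on all 6 arrays, the variance trend and the authors' matrix, where 12, 24, 89, 13, 110 and 12 genes passed over all genes, against 3. With no filter, a slide-row term, a Y-linked term or the replicate block, 0 genes passed in limma (2868, 3274, 1097 and 2237 at an unadjusted p under 0.05). Deviations from the group mean correlated at -0.20, 0.08 and 0.17 between arrays of the same replicate number. Arrays of different numbers were not compared, so these values cannot show whether the numbers pair the samples. With the replicate block 0 members passed. Leaving out each array in turn gave 0 to 4 genes over all and 0 members. Members with separated groups were then 6 to 10 higher and 8 to 14 lower. Fewer arrays separate more genes by construction, and over all genes the shares were 9.55% to 15.4% higher and 9.27% to 12.2% lower. Without control replicates 1 and 3 they were 12 (22.6%) and 14 (26.4%), against 23.4% and 21.3% of all genes. Median centring gave 5 lower (9.43%, against 5.23% of all genes) and the mean of probes 3 higher (5.66%, against 6.96%). The median of the 53 was 0.030 with normexp, 0.022 with a Y-linked term and 0.022 without those arrays, and -0.031 to 0.0051 leaving out arrays. Added after seeing the data were the percentile over all spots, that over tested probes, keeping outlier spots and the removal of those 2 control arrays. In that order, all but the last gave 2, 2 and 3 genes over all and 0 members. Separated lower members were 7, 8 and 8 (13.2%, 15.1% and 15.1%), against 6.22%, 6.59% and 6.19% of all genes. Separated higher members were 6 in each (11.3%), against 7.17%, 6.77% and 6.99%. The causes were not tested.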

Other observations

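Erbb4, the neuregulin receptor of interneurons, was read in the set by 1 probe with low signal, at -4.87, -5.43 and -5.45 in the arrays labelled cKO, against -5.58, -5.73 and -5.38 in control. A second Erbb4 probe carries only a transcript ID as its gene name and lay outside the naming rule. It read 1.92, 1.74 and 1.77 in the arrays labelled cKO, against 1.72, 1.76 and 1.5 in control (difference 0.15, SE 0.11, limma adjusted p = 0.96 over all probes), and the groups overlapped. The ligand Igf2, a meningeal and vascular product and no member of the set, read -0.78, -1.59 and -0.55 in the arrays labelled cKO, against -0.39, -0.90 and -0.46 in control. It was lowest within each group in the same arrays as Igfbp6 and the meningeal markers. The Cre locus Neurod6 read 2.85, 2.50 and 2.52 in the arrays labelled cKO, against 2.27, 2.13 and 2.35 in control (difference 0.37, adjusted p = 0.52).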
